A study of Mus musculus with 12 samples.

Results

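Liver RNA was examined for 8 genes that bring cholesterol into the cell, move it between membranes and esterify it: Lrp1, Scarb1, Lipa, Npc1, Npc2, Stard4, Tmem97 and Soat2. They were found by their symbols in a table of 23991 genes, and for each gene the transcript row with the highest mean over the 12 libraries was used. All 8 were among the 6325 genes that passed a filter on low values (at least 0.5 RPKM in at least 4 of the 12 libraries). RPKM is reads scaled by gene length and by library total.

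The livers were from male C57/Bl6J mice in 3 diet groups of 4 libraries each. HFD+ASBTi mice received high-fat food to which cholesterol (0.2%, w/w) and SC-435 (0.006%) had been added; SC-435 is an inhibitor of ASBT, the transporter (encoded by Slc10a2) that takes bile acids back up in the ileum. HFD mice received the same diet with cholesterol but without SC-435, and chow mice received chow. All groups started their food at 4 weeks of age and were kept on it for 16 weeks. Libraries were made from polyA RNA of flash-frozen livers, and estimated depth was 8970000 to 11260000 reads in HFD+ASBTi libraries, 10310000 to 13240000 in HFD libraries and 10670000 to 11350000 in chow libraries. Whether every library came from its own mouse is not stated in the labels, so p-values reflect only library-to-library spread, part of which could be technical. The hepatocyte marker Alb was at 752.6 ± 141.1 RPKM in HFD+ASBTi, 997.3 ± 235.4 in HFD and 999.1 ± 143.9 in chow livers (SD, n = 4 each).

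Cholesterol reaches the liver cell on lipoproteins. Endocytic receptors such as LRP1 carry particles to the lysosome, where lysosomal acid lipase splits cholesteryl esters, and NPC2 and NPC1 pass the freed cholesterol out through the lysosomal membrane. SR-BI, the product of Scarb1, instead takes cholesteryl ester from HDL at the cell surface without taking up the particle. Cytosolic carriers such as STARD4 move sterol between membranes, and in the endoplasmic reticulum SOAT2 joins cholesterol to a fatty acid for storage or for secretion in lipoproteins. SREBP2 is the transcription factor that raises sterol synthesis and uptake genes when endoplasmic reticulum cholesterol is low.

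Promoters are shown for Lipa and Lrp1, the members whose level passed the test in at least 1 comparison. The sequences are from RefSeq on the build GRCm38.p6, and the deposited values were made on mm9. Each runs from 250 bases before to 50 bases after the annotated start and is read along the minus strand, at chr19:34527425-34527724 for Lipa and chr10:127621099-127621398 for Lrp1. Capitals mark the motif matches: in Lipa an NF-Y box and a GC box, and in Lrp1 a GC box.
Lipa promoter: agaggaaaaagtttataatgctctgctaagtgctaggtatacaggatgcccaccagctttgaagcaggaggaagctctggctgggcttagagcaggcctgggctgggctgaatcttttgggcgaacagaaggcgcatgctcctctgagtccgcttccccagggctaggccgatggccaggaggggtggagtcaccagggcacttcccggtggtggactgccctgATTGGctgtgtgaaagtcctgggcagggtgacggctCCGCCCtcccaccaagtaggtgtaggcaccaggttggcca
Lrp1 promoter: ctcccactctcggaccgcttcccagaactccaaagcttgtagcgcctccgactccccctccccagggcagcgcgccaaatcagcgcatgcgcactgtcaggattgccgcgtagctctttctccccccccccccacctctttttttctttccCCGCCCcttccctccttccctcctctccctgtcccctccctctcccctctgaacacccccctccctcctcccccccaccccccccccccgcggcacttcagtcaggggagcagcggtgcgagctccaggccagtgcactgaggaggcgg

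Exact matches were sought on both strands for 4 motifs. These were the sterol regulatory element TCACNCCAC, bound by SREBP proteins and held by 1.24% of 32851 promoters of the same length, and the E-box TCACGTGA of lysosomal genes, held by 0.974%. The others were the NF-Y box CCAAT (37.4%) and the GC box GGGCGG (35.7%). The Lipa window held 1 NF-Y box starting at base 225 and 1 GC box starting at base 261, counted from the 5′ end as printed, and the letters of the other motifs were not in it. The Lrp1 window held 1 GC box, starting at base 152. The windows of Npc2 and Tmem97 likewise held NF-Y and GC boxes (2 and 3 in Npc2, 2 and 2 in Tmem97) and neither of the rarer motifs. Scarb1, Npc1, Stard4 and Soat2 had no sequence among the 32851 promoters, so they were not searched. A match is a run of letters and not evidence of binding.

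Levels of different genes were compared per spliced length, because the deposited RPKM appears, from its low values, to divide reads by the genomic span with introns. On estimated RPM (reads scaled by library total alone) per spliced kb, the mean over the 12 libraries was 39.4 ± 8.51 (SD) for Lipa, 39.3 ± 6.91 for Tmem97 and 36.0 ± 6.11 for Scarb1. These overlapped widely, and their lowest library was at 25.8. Lrp1 (16.9 ± 3.03), Npc1 (14.1 ± 1.84), Soat2 (13.5 ± 1.68) and Npc2 (12.5 ± 1.50) followed, between 10.2 and 20.7 in all libraries, so that neighbours in this order did not differ beyond their spread. Stard4 was lowest at 3.57 ± 1.53, with its highest library at 6.24. The lengths come from the GENCODE annotation of GRCm38, and the order of the levels rests on them and on the inferred use of the span. Whether reads in introns were counted is not given. The spliced share of the span ran from 3.70% in Scarb1 to 35.1% in Stard4, and its part in the order was not tested.

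**Figure D1:**
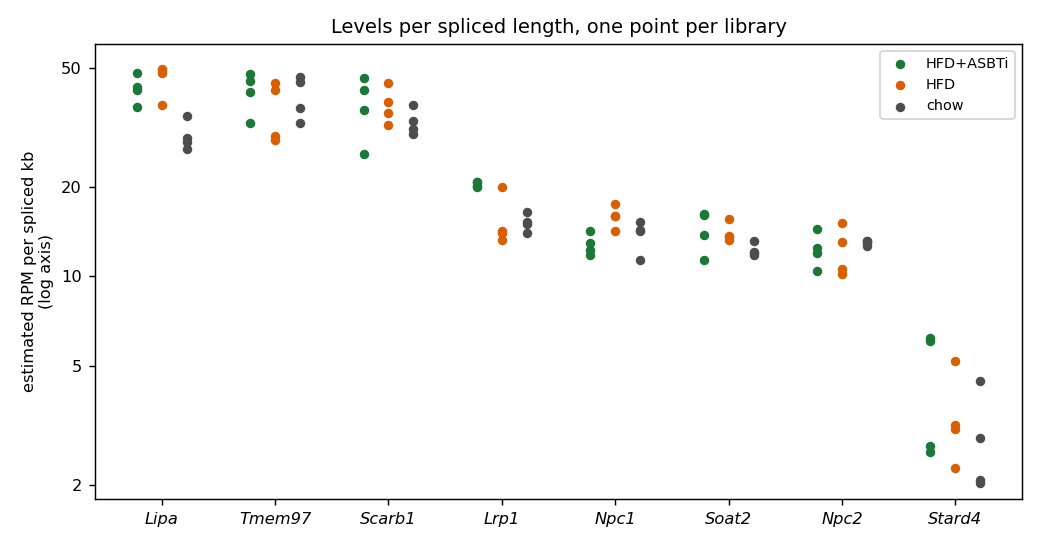
Estimated RPM per spliced kb (log axis) for the 8 genes, ordered by their mean over the 12 libraries, with 1 point per library and colours for HFD+ASBTi, HFD and chow. Lipa, Tmem97 and Scarb1 sit above 25 in every library, Lrp1, Npc1, Soat2 and Npc2 lie between 10.2 and 20.7, and Stard4 lies between 2.03 and 6.24.

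HFD livers differed from chow livers in 1 of the 8 genes by the test across all genes (limma, Benjamini-Hochberg adjusted p under 0.05): Lipa rose, and the other 7 did not pass. Over all tested genes, 12.1% passed in this comparison. The groups did not overlap for Lipa and Soat2, as for 21.3% of all tested genes. The median log2 change of the 8 genes was 0.15, against 0.02 over all tested genes. When SC-435 was added, no member passed in HFD+ASBTi against HFD livers, where 0.0949% of tested genes did, and the groups did not overlap for Lrp1, as for 3.97% of tested genes. By unadjusted limma p under 0.05, 2 members (Lrp1 and Npc1) and 586 of all tested genes passed in that comparison. By the exact permutation test, also unadjusted, 1 member (Lrp1) did. HFD+ASBTi livers differed from chow livers in Lipa and Lrp1, which were higher, passed the test and did not overlap between the groups. In that comparison 7.05% of tested genes passed and 15.8% did not overlap. The 3 comparisons share groups and are not independent of each other.

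**Figure D2:**
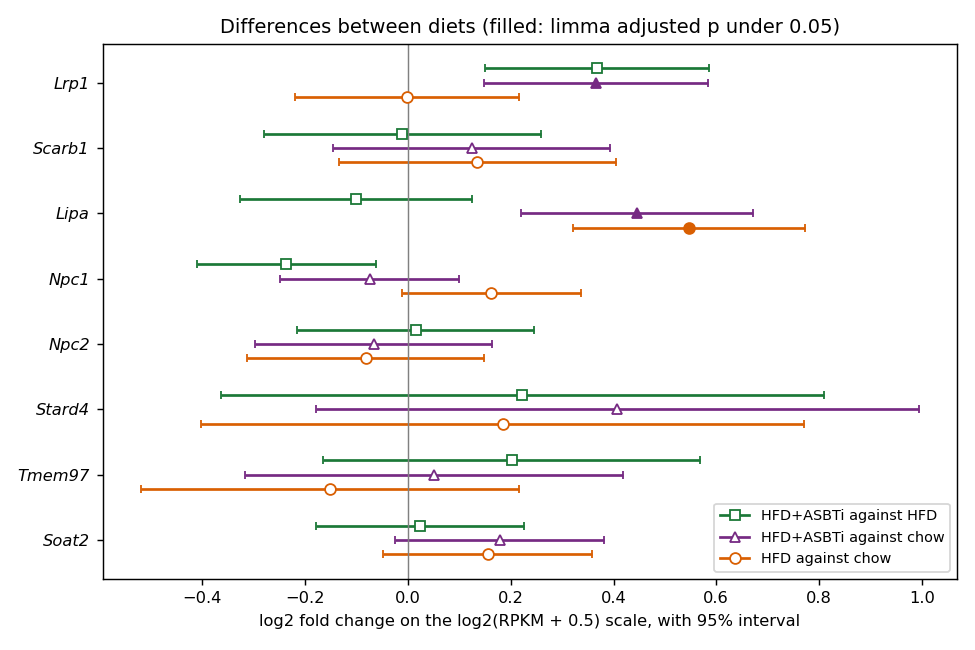
Log2 fold change on the log2(RPKM + 0.5) scale with its 95% interval for the 8 genes, for HFD+ASBTi against HFD, HFD+ASBTi against chow and HFD against chow; filled symbols passed the limma test. Only Lipa (0.55 in HFD against chow, 0.45 in HFD+ASBTi against chow) and Lrp1 (0.37 in HFD+ASBTi against chow) have filled symbols.

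Of the uptake receptors, Lrp1 was higher in HFD+ASBTi livers than in chow livers. Lrp1 encodes a large endocytic receptor that clears chylomicron remnants in the liver and takes up many other ligands. It had 3.71, 3.70, 3.57 and 3.60 RPKM in the HFD+ASBTi libraries, 3.57, 2.54, 2.50 and 2.37 RPKM in the HFD libraries and 2.70, 2.52, 2.72 and 2.95 RPKM in the chow libraries. The 4 HFD+ASBTi libraries lay within 1.04-fold of each other and above every other library, while HFD 1 stood apart from the other HFD libraries. HFD 1 was at 3.566 RPKM and the lowest HFD+ASBTi library at 3.5715, so the lack of overlap with HFD rests on a gap under 1%. The group means were 3.65 ± 0.0717 RPKM in HFD+ASBTi, 2.75 ± 0.552 in HFD and 2.72 ± 0.179 in chow livers (SD, n = 4 each).

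In HFD+ASBTi against chow livers the Lrp1 ratio of means was 1.34 (log2 change 0.37, 95% interval 0.15 to 0.58; limma adjusted p = 0.0494). That call was close to the threshold and held in 7 of 21 alternative analyses. It ended with no filter on low values (limma adjusted p = 0.0965), with size factors (0.102), on estimated RPM (0.0603), with the mean of transcript rows (0.0502), and without any HFD+ASBTi library, any chow library, HFD 2 or HFD 3 (0.0634 to 0.131). Against HFD, the HFD+ASBTi ratio was 1.33 (log2 change 0.37, 95% interval 0.15 to 0.59), which did not pass over all genes (limma adjusted p = 0.320) and reached the smallest p that the exact permutation test allows (two-sided, p = 0.0286 over 70 splits). Without HFD 1 the log2 change was 0.48 and the gene passed (limma adjusted p = 0.0320). In HFD against chow livers the log2 change was -0.00 (95% interval -0.22 to 0.22; limma adjusted p = 0.993).

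The Lrp1 message is long, and 21 tested genes have spliced lengths of at least 10 kb, Lrp1 included. Their median log2 change was -0.00 in HFD+ASBTi against HFD, 0.15 in HFD+ASBTi against chow and 0.06 in HFD against chow. In chow 1 and chow 2 the median of these long messages was 0.13 and 0.12 below their 12-library mean on the log2 scale, and in the other libraries it lay from -0.07 to 0.05. The part of this in the Lrp1 difference from chow was not tested.

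Scarb1, the HDL receptor, did not pass in any comparison. It had 1.56, 1.71, 1.33 and 0.954 RPKM in HFD+ASBTi libraries, 1.42, 1.30, 1.19 and 1.65 RPKM in HFD libraries and 1.38, 1.22, 1.11 and 1.15 RPKM in chow libraries. The mean was 1.39 ± 0.330 RPKM in HFD+ASBTi, 1.39 ± 0.194 in HFD and 1.22 ± 0.121 in chow livers (SD, n = 4 each). All 3 groups overlapped. The limma log2 change was -0.01 in HFD+ASBTi against HFD (95% interval -0.28 to 0.26; adjusted p = 0.990) and 0.14 in HFD against chow (-0.13 to 0.40; adjusted p = 0.5004). The table holds a second, lower Scarb1 transcript row, at 0.593 ± 0.127 RPKM in HFD+ASBTi, 0.548 ± 0.0569 in HFD and 0.434 ± 0.0176 in chow livers (SD, n = 4 each). For that row HFD livers did not overlap chow livers (ratio 1.26), as was the case for 21.3% of all tested genes. The unadjusted two-sided exact permutation p of 0.0286, the smallest possible, follows from the lack of overlap. The row was not tested by limma, and its chow mean was under 0.5 RPKM. How the authors shared reads between transcripts of a gene is not given in the sources used here.

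**Figure D3:**
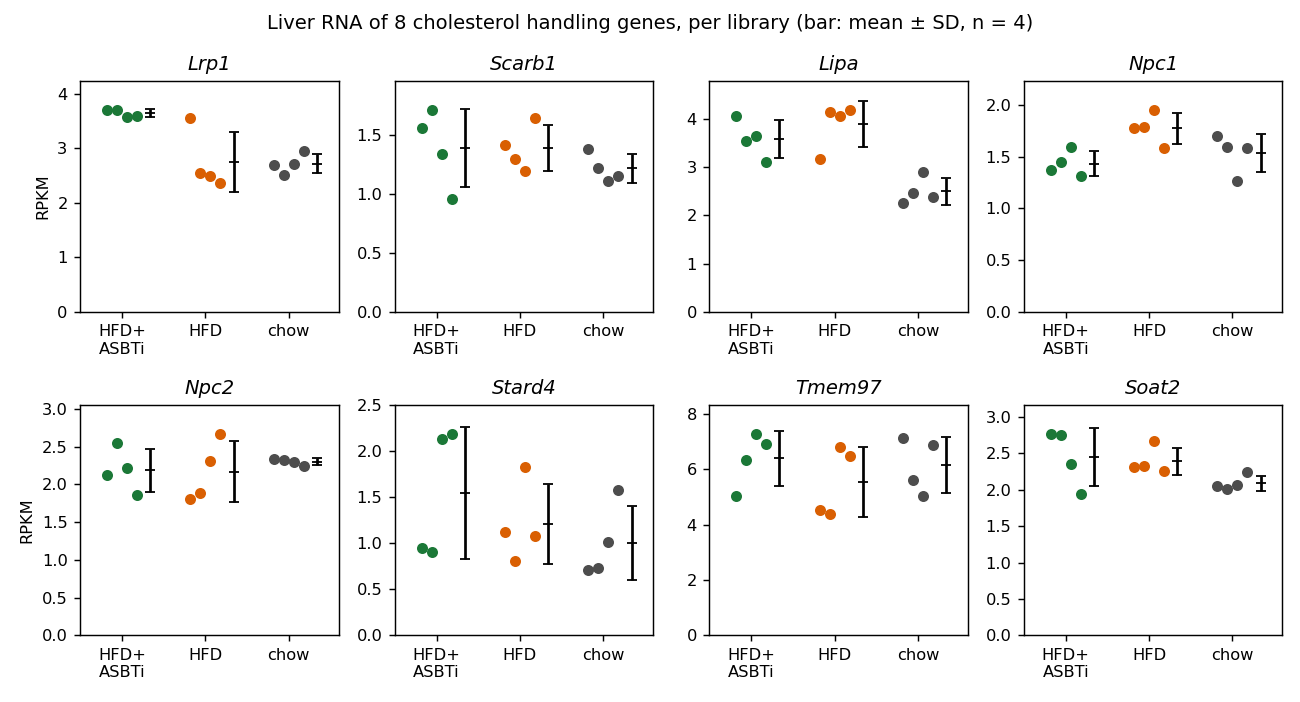
RPKM of each gene (linear axes from 0) in the 4 HFD+ASBTi, 4 HFD and 4 chow libraries, with the mean ± SD beside the points. The chow points of Lipa (2.26 to 2.90) lie below all others, the HFD+ASBTi points of Lrp1 (3.57 to 3.71) lie above all others with HFD 1 just beneath them, and Stard4 spreads from 0.712 to 2.19.

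Of the lysosomal genes, Lipa rose in HFD livers and was also higher than chow in HFD+ASBTi livers. Lipa encodes lysosomal acid lipase, which hydrolyses the cholesteryl esters and triglycerides of endocytosed lipoproteins, and whose loss causes cholesteryl ester storage in the liver. It had 4.05, 3.55, 3.64 and 3.10 RPKM in HFD+ASBTi libraries, 3.17, 4.14, 4.06 and 4.19 RPKM in HFD libraries and 2.26, 2.45, 2.90 and 2.39 RPKM in chow libraries. Every library on either high-fat diet lay above every chow library, and HFD 1 was the lowest of the HFD group. The means were 3.59 ± 0.391 RPKM in HFD+ASBTi, 3.89 ± 0.482 in HFD and 2.50 ± 0.280 in chow livers (SD, n = 4 each).

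The Lipa ratio of HFD to chow was 1.56 (log2 change 0.55, SE 0.103, 95% interval 0.32 to 0.77; limma adjusted p = 0.00779). This call held in all 21 alternative analyses, with log2 changes of 0.48 to 0.63. The ratio of HFD+ASBTi to chow was 1.44 (log2 change 0.45, 95% interval 0.22 to 0.67; limma adjusted p = 0.0280). That call held in 14 of 21 alternatives and ended with no filter on low values (limma adjusted p = 0.0579), without HFD+ASBTi 1, 2 or 3 (0.0532 to 0.0756) and without chow 1, 2 or 4 (0.0704 to 0.0793). Between HFD+ASBTi and HFD livers, Lipa did not pass (log2 change -0.10, 95% interval -0.33 to 0.12; limma adjusted p = 0.793).

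Lipa is also expressed by macrophages. In bulk tissue a change in the number of cells of a type cannot be told apart from a change in RNA per cell. The summed level of 16 macrophage and Kupffer cell markers was 42.3 to 71.2 RPKM in HFD+ASBTi, 44.2 to 59.0 in HFD and 26.6 to 59.5 in chow libraries. None of the 16 was at 0 in any library. The highest chow sum was that of chow C7, which also had the highest Lipa of the chow libraries, and that chow sum was above every HFD sum while its Lipa was below every HFD value. Of 9 tested markers, 2 rose in HFD livers and in HFD+ASBTi livers against chow, with median log2 changes of 0.21 and 0.38 over the 9. Over all 6325 tested genes, 484 and 300 rose in these comparisons, with medians of 0.02 and 0.03. Mpeg1, which encodes perforin-2 of macrophages, was at 12.9 ± 2.74 RPKM in HFD and 6.24 ± 1.63 in chow livers (limma adjusted p = 0.0231), and Cd68 at 2.08 ± 0.479 RPKM in HFD and 1.08 ± 0.377 in chow livers (limma adjusted p = 0.0202; SD, n = 4 each). These calls ended without chow 1 or 2, that of Mpeg1 also with no filter on low values, and that of Cd68 also without HFD 2 or chow 4 (limma adjusted p up to 0.0701 for Mpeg1 and 0.0607 for Cd68). In HFD+ASBTi against chow the Mpeg1 call ended without chow 2 (0.0554), and the Cd68 call with no filter and without HFD+ASBTi 2, chow 1, 2 or 4 (up to 0.0748). Clec4f, which marks Kupffer cells, was at 4.83 ± 1.12 RPKM in HFD+ASBTi, 3.17 ± 0.691 in HFD and 4.11 ± 1.53 in chow livers, and Adgre1 was under the filter at 0.0170 to 0.0661 RPKM. The part of these cells in the Lipa difference was not tested.

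Of 12 tested hepatocyte markers, 5 fell in HFD against chow livers and 2 in HFD+ASBTi against chow livers (median log2 changes -0.42 and -0.32). Among all 6325 tested genes, 282 and 146 fell in these comparisons (medians 0.02 and 0.03). Hnf4a, which encodes a transcription factor of hepatocytes, was at 11.3 ± 1.60 RPKM in HFD and 19.2 ± 1.08 in chow livers (limma adjusted p = 0.00126). Summed over the list, the markers were at 3441 to 3806 RPKM in HFD+ASBTi, 3239 to 5237 in HFD and 3535 to 3981 in chow libraries, and these sums, led by Apoa1 and Alb, overlapped. The median log2 deviation of the 12 markers from their 12-library means did not overlap with chow: it was -0.13 to 0.02 in HFD+ASBTi, -0.31 to 0.07 in HFD and 0.14 to 0.28 in chow libraries. The part of this in the members' differences from chow was not tested. Of 15 endothelial and stellate cell markers only 3 passed the filter, and none passed the limma test in any comparison. At an unadjusted p under 0.05, 0 of 3 passed in each, where 586 to 1813 of all 6325 tested genes did. The sums of the 15 markers were 4.51 to 9.60 RPKM in HFD+ASBTi, 4.51 to 8.47 in HFD and 6.53 to 8.48 in chow libraries. Pecam1, which marks endothelium, was under the filter at 0.0530 to 0.138 RPKM, and Dcn was at 1.23 ± 0.478 RPKM in HFD+ASBTi, 1.57 ± 0.635 in HFD and 1.22 ± 0.325 in chow livers (SD, n = 4 each).

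Npc1 encodes the lysosomal membrane protein through which cholesterol leaves the lysosome, and its loss causes Niemann-Pick type C disease. It had 1.37, 1.45, 1.59 and 1.32 RPKM in HFD+ASBTi libraries, 1.78, 1.78, 1.95 and 1.59 RPKM in HFD libraries and 1.70, 1.60, 1.27 and 1.58 RPKM in chow libraries. The HFD+ASBTi libraries lay low and the HFD libraries high, with an overlap at 1.59 RPKM. The mean was 1.43 ± 0.121 RPKM in HFD+ASBTi, 1.78 ± 0.149 in HFD and 1.54 ± 0.187 in chow livers (SD, n = 4 each). The ratio of HFD+ASBTi to HFD was 0.806 (log2 change -0.24, 95% interval -0.41 to -0.06), with an unadjusted limma p of 0.0121 that did not pass over all genes (adjusted p = 0.414) and an exact permutation p of 0.0571. In HFD against chow livers the log2 change was 0.16 (95% interval -0.01 to 0.34; limma adjusted p = 0.201), and in HFD+ASBTi against chow livers -0.07 (-0.25 to 0.10; limma adjusted p = 0.624).

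Npc2 encodes the soluble lysosomal protein that hands cholesterol to NPC1. It had 2.12, 2.55, 2.22 and 1.86 RPKM in HFD+ASBTi libraries, 1.81, 1.89, 2.31 and 2.67 RPKM in HFD libraries and 2.34, 2.32, 2.30 and 2.24 RPKM in chow libraries. The chow libraries were the tightest and lay inside the range of both other groups. The means were 2.19 ± 0.287 RPKM in HFD+ASBTi, 2.17 ± 0.403 in HFD and 2.30 ± 0.0429 in chow livers (SD, n = 4 each), and no comparison passed (limma adjusted p of 0.648 to 0.983). The 95% intervals of the log2 changes lay within -0.31 and 0.25.

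Other lysosomal genes gave no called change. Of 26 genes for lysosomal hydrolases, the proton pump and their regulators, 20 passed the filter and 0 passed the limma test in any of the 3 comparisons. The shares over all tested genes were 0.0949% in HFD+ASBTi against HFD, 7.05% in HFD+ASBTi against chow and 12.1% in HFD against chow. At an unadjusted p under 0.05, 1 passed in HFD+ASBTi against HFD, 4 in HFD+ASBTi against chow and 2 in HFD against chow. Of all 6325 tested genes, 586, 1474 and 1813 passed at that unadjusted threshold in the same order. The median log2 change of the list was -0.01, 0.02 and 0.06 in the same order, against 0.01, 0.03 and 0.02 over all tested genes. Under the alternatives 0 to 2 of the 20 fell in HFD against chow and none rose. Ctsl, which encodes cathepsin L and was named after the values were seen, averaged 25.9 RPKM in HFD and 35.4 RPKM in chow livers (log2 change -0.46, SE 0.151; limma adjusted p = 0.0705), and passed with size factors, without HFD 4 or without HFD+ASBTi 3. Whether Lipa differed more than these genes was not tested.

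Stard4, which encodes a cytosolic sterol carrier and is a target of SREBP2, varied more between libraries of a group than it did between groups. It had 0.948, 0.910, 2.13 and 2.19 RPKM in HFD+ASBTi libraries, 1.12, 0.806, 1.83 and 1.08 RPKM in HFD libraries and 0.712, 0.733, 1.01 and 1.57 RPKM in chow libraries. HFD+ASBTi 3 and 4 lay above all others, and HFD+ASBTi 1 and 2 lay among the HFD and chow libraries. Its within-group SD on the log2 scale was 0.42, larger than that of 90.3% of tested genes, and the median gene had 0.15. The mean was 1.55 ± 0.712 RPKM in HFD+ASBTi, 1.21 ± 0.435 in HFD and 1.01 ± 0.401 in chow livers (SD, n = 4 each). No difference passed: the log2 change was 0.22 in HFD+ASBTi against HFD (95% interval -0.36 to 0.81; limma adjusted p = 0.834), 0.41 in HFD+ASBTi against chow (-0.18 to 0.99; 0.399) and 0.18 in HFD against chow (-0.40 to 0.77; 0.688). With estimated reads of 112 to 320 per library, Stard4 had the fewest of the 8 genes.

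Tmem97, which encodes the sigma-2 receptor, an endoplasmic reticulum protein that binds sterols and NPC1 and is also induced when sterols are low, was the next most variable member. Its within-group SD on the log2 scale was 0.25, larger than that of 79.7% of tested genes. It had 5.02, 6.35, 7.29 and 6.91 RPKM in HFD+ASBTi libraries, 4.53, 4.38, 6.80 and 6.47 RPKM in HFD libraries and 7.13, 5.61, 5.02 and 6.88 RPKM in chow libraries. The groups overlapped, and HFD libraries fell into a low and a high pair. The means were 6.39 ± 0.992 RPKM in HFD+ASBTi, 5.54 ± 1.27 in HFD and 6.16 ± 1.01 in chow livers (SD, n = 4 each), and no comparison passed (limma adjusted p of 0.592 to 0.889).

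The summed RPKM of 22 genes of the SREBP2 programme (sterol synthesis enzymes, SREBP2 itself and its escort and retention proteins, without Stard4 and Tmem97) was 83.5, 85.4, 147.9 and 152.3 in HFD+ASBTi libraries. It was 83.9, 68.5, 111.9 and 109.6 in HFD libraries and 101.8, 74.2, 78.2 and 102.9 in chow libraries. The library with the highest Stard4 in each group (HFD+ASBTi 4, HFD 3 and chow 4) also had the highest sum of its group, whereas chow 1 had the lowest Stard4 and the second highest sum among chow libraries. Tmem97 was highest in HFD+ASBTi 3, HFD 3 and chow 1. HFD+ASBTi 3 and 4, with the highest sums of the 12, were also the shallowest libraries, at 8970000 and 9200000 estimated reads. The deepest, HFD 4, had a higher sum than HFD 1 and 2. In the sample titles HFD+ASBTi 1 and 2 carry consecutive numbers, and HFD+ASBTi 3 and 4 carry consecutive numbers apart from these. Whether the numbers mark a batch cannot be told from the labels. The orders of Stard4, Tmem97 and the sums were chosen after the values were seen and were not tested.

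**Figure D4:**
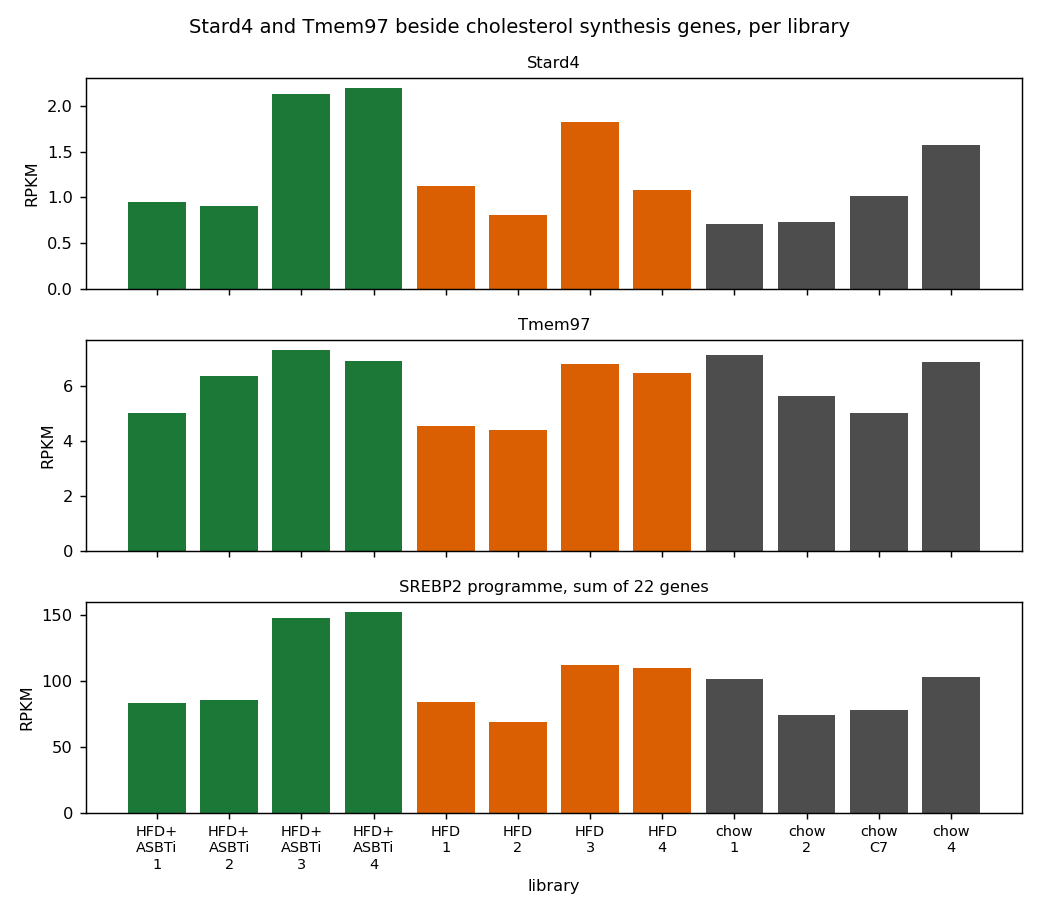
RPKM of Stard4 (top), Tmem97 (middle) and the sum of 22 SREBP2 programme genes (bottom) in each of the 12 libraries, ordered HFD+ASBTi, HFD and chow, with bars from 0. In HFD+ASBTi libraries 3 and 4 Stard4 is at 2.13 and 2.19 RPKM and the sum at 147.9 and 152.3 RPKM, above all other libraries.

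Of the 21 tested genes of that programme, 0 passed in HFD+ASBTi against HFD livers by limma (8 at an unadjusted p under 0.05, median log2 change 0.32). In HFD+ASBTi against chow 2 rose (median 0.23), and in HFD against chow 2 rose and 1 fell (median -0.27). The shares passing over all tested genes were 0.0949%, 7.05% and 12.1% in that order, with medians of 0.01, 0.03 and 0.02. At an unadjusted p under 0.05, 586 of all 6325 tested genes passed in HFD+ASBTi against HFD. Acat2, which encodes a cytosolic thiolase and is not the Soat2 product of the same protein name, was at 3.93 ± 0.331 RPKM in HFD+ASBTi, 3.45 ± 0.580 in HFD and 2.50 ± 0.208 in chow livers (limma adjusted p = 0.0300 in HFD against chow; SD, n = 4 each). Sc5d, a late enzyme of cholesterol synthesis, was at 19.8 ± 5.67 RPKM in HFD+ASBTi, 20.2 ± 5.24 in HFD and 10.3 ± 1.61 in chow livers (limma adjusted p = 0.0245 in HFD against chow). Srebf2, which encodes SREBP2, was at 0.518 ± 0.0689 RPKM in HFD+ASBTi, 0.360 ± 0.0769 in HFD and 0.567 ± 0.102 in chow livers, and fell in HFD against chow (log2 change -0.31; limma adjusted p = 0.0431). With an HFD level under 0.5 RPKM, Srebf2 passed the filter on low values only through HFD+ASBTi and chow libraries. The Srebf2 call held in 8 of 20 alternatives. It ended with no filter on low values, with only the 2 groups compared in the model, and without chow 1, chow C7 or chow 4. Leaving out any HFD library, or any HFD+ASBTi library but the fourth, also ended it (limma adjusted p up to 0.113). The calls of Acat2 and Sc5d in HFD against chow ended with no filter. That of Acat2 also ended without HFD 3, chow 2, chow C7 or chow 4 (limma adjusted p up to 0.0780), and that of Sc5d without HFD 3, HFD 4, chow 1, chow 2 or chow C7 (up to 0.0700). In HFD+ASBTi against chow, Acat2 (limma adjusted p = 0.0117) passed in all 21 alternatives and Sc5d (0.0433) in 11 of 21, ending with no filter, with size factors, with only the 2 groups in the model, and without HFD+ASBTi 3 or 4, HFD 1 or any chow library (up to 0.111).

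Soat2 encodes the enzyme that esterifies cholesterol in hepatocytes. It had 2.77, 2.75, 2.35 and 1.93 RPKM in HFD+ASBTi libraries, 2.31, 2.32, 2.66 and 2.25 RPKM in HFD libraries and 2.05, 2.01, 2.06 and 2.24 RPKM in chow libraries. All HFD libraries lay above all chow libraries, the lowest HFD library being at 2.25 RPKM and the highest chow library at 2.24, and the HFD+ASBTi libraries spanned both groups. The means were 2.45 ± 0.395 RPKM in HFD+ASBTi, 2.39 ± 0.187 in HFD and 2.09 ± 0.104 in chow livers (SD, n = 4 each). The ratio of HFD to chow was 1.14 (log2 change 0.16, 95% interval -0.05 to 0.36), which did not pass over all genes (limma adjusted p = 0.296) and had the smallest p of the exact permutation test (p = 0.0286). The log2 change was 0.02 in HFD+ASBTi against HFD (95% interval -0.18 to 0.23; limma adjusted p = 0.961) and 0.18 in HFD+ASBTi against chow (-0.02 to 0.38; limma adjusted p = 0.276).

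Among 10 tested genes of sterol ester synthesis and hydrolysis other than Soat2 and Lipa, 3 rose in HFD against chow livers, 1 rose in HFD+ASBTi against chow, and 0 passed in HFD+ASBTi against HFD by limma (1 at an unadjusted p under 0.05). The medians of the log2 change were 0.44, 0.24 and -0.09 in the same order. Over all tested genes the shares passing were 12.1%, 7.05% and 0.0949% in that order, and the medians 0.02, 0.03 and 0.01. At an unadjusted p under 0.05, 586 of all 6325 tested genes passed in HFD+ASBTi against HFD. Lipe, which encodes hormone-sensitive lipase, a neutral hydrolase of cholesteryl ester and diacylglycerol, was at 1.30 ± 0.176 RPKM in HFD+ASBTi, 1.47 ± 0.261 in HFD and 0.815 ± 0.179 in chow livers, 1.81-fold higher in HFD than in chow (limma adjusted p = 0.0111; SD, n = 4 each). Aadac, a microsomal lipid hydrolase, was 1.41-fold higher in HFD than in chow livers (28.5 ± 2.12 RPKM in HFD and 20.1 ± 1.07 in chow livers; limma adjusted p = 0.0110). Ces1f, a carboxylesterase, was 1.39-fold higher (6.55 ± 0.840 RPKM in HFD and 4.70 ± 0.623 in chow livers; limma adjusted p = 0.0463), and its reads may be shared with its close paralogs of the Ces1 cluster. The calls of Lipe and Aadac in HFD against chow held in all 21 alternatives and that of Ces1f in 11, ending with no filter, with size factors and without HFD 1, 2 or 3, chow 1, 2 or 4, or HFD+ASBTi 1 or 2 (limma adjusted p up to 0.118). The call in HFD+ASBTi against chow was that of Lipe (limma adjusted p = 0.0449), which held in 9 of 21 alternatives and ended with no filter, with size factors, with only the 2 groups in the model, and without HFD+ASBTi 1, 2 or 3, HFD 1 or 3 or any chow library (up to 0.113). The list's gene Cel was at 0 in all 12 libraries.

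Of 9 tested genes for other lipoprotein receptors and adaptors, 2 rose in HFD against chow livers and 1 rose in HFD+ASBTi against chow. In HFD+ASBTi against HFD 0 passed by limma (0 also at an unadjusted p under 0.05). Of all tested genes, 12.1%, 7.05% and 0.0949% passed in the same comparisons, and 586 of 6325 at an unadjusted p under 0.05 in HFD+ASBTi against HFD. Pdzk1, which encodes the adaptor that holds SR-BI at the hepatocyte surface, was at 1.07 ± 0.0672 RPKM in HFD+ASBTi, 1.13 ± 0.0773 in HFD and 0.898 ± 0.0743 in chow livers, 1.26-fold higher in HFD than in chow (limma adjusted p = 0.0294; SD, n = 4 each). The Pdzk1 call ended without HFD 2, HFD 3, chow 1, chow C7 or chow 4 (limma adjusted p up to 0.0844). The other was Cd36, a scavenger receptor of the same family as SR-BI, at 0.873 ± 0.307 RPKM in HFD+ASBTi, 1.15 ± 0.262 in HFD and 0.275 ± 0.101 in chow livers (limma adjusted p = 0.00325 in HFD against chow and 0.0202 in HFD+ASBTi against chow). The Cd36 call in HFD against chow held in all 20 alternatives, and that in HFD+ASBTi against chow in 15 of 20. The latter ended with no filter on low values and without HFD+ASBTi 1 or 2 or chow 1 or 2 (limma adjusted p up to 0.0620). With a chow level under 0.5 RPKM, Cd36 passed the filter on low values only through HFD+ASBTi and HFD libraries. It was not among the genes tested with a mean of at least 1 RPKM.

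Of 13 tested genes for sterol transfer between membranes, 1 rose in HFD against chow and 1 in HFD+ASBTi against chow. In HFD+ASBTi against HFD 0 rose by limma (1 passed at an unadjusted p under 0.05). The median log2 changes were 0.02, -0.02 and -0.04 in that order. Of all tested genes, 12.1%, 7.05% and 0.0949% passed, with medians of 0.02, 0.03 and 0.01. At an unadjusted p under 0.05, 586 of all 6325 tested genes passed in HFD+ASBTi against HFD. Scp2, which encodes sterol carrier protein 2 and a peroxisomal thiolase, was at 16.9 ± 2.70 RPKM in HFD+ASBTi, 19.1 ± 1.33 in HFD and 12.8 ± 1.26 in chow livers (limma adjusted p = 0.0126 in HFD against chow; SD, n = 4 each). Gramd1c, of the Aster family of carriers from the plasma membrane to the endoplasmic reticulum, was at 0.687 ± 0.0745 RPKM in HFD+ASBTi, 0.513 ± 0.0320 in HFD and 0.503 ± 0.0550 in chow livers. It rose 1.37-fold in HFD+ASBTi against chow (limma adjusted p = 0.0425) and did not pass in HFD+ASBTi against HFD (adjusted p = 0.320). The Scp2 call held in all 21 alternatives, and the Gramd1c call in 7 of 20, ending with no filter, with size factors, with only the 2 groups in the model, and without any of HFD+ASBTi 2 to 4, HFD 1 to 3 or the chow libraries (limma adjusted p up to 0.116).

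The genes whose levels followed those of Lipa and Lrp1 most closely were named by the Pearson r of log2(RPKM + 0.5) over the 12 libraries, which share diet group and library total, and are a description without a test. For Lipa they were Fabp1 (r = 0.955), the liver fatty acid binding protein, Wdr73 (0.941) and Chdh (0.941), which encodes choline dehydrogenase. Fabp1 was at 238.4 ± 48.7 RPKM in HFD+ASBTi, 293.5 ± 36.3 in HFD and 104.4 ± 19.6 in chow livers (SD, n = 4 each), so it shared with Lipa the order of the 3 group means. For Lrp1 they were Slc22a7 (r = 0.876), an organic anion transporter of hepatocytes, Pigr (0.875), the polymeric immunoglobulin receptor, and Lime1 (0.863). Slc22a7 was at 2.29 ± 0.710 RPKM in HFD+ASBTi, 1.09 ± 0.626 in HFD and 0.772 ± 0.283 in chow livers.

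The counts behind these values differed. Estimated reads per library were 2176 to 3463 for Lrp1, 863 to 1950 for Lipa, 566 to 1099 for Npc1, 562 to 1394 for Scarb1, 405 to 768 for Tmem97, 318 to 658 for Npc2 and 230 to 416 for Soat2. Counting by strand is not mentioned in the labels, and reads from genes that overlap cannot be told apart. In the GRCm38 RefSeq annotation, Npc1 overlaps Rmc1, Scarb1 overlaps the non-coding gene Gm32701, and Lrp1 overlaps the non-coding genes Gm16217 and Gm51820.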

How the data were processed

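Liver polyA RNA was measured in 12 libraries of 3 diet groups. The authors' deposited table gives RPKM for 33763 transcript rows. Bowtie 0.12.7 and the build mm9 are named per the submitters' processing notes; which program counted reads, on which annotation and after which filters is not given in the sources used here. Chow C7 is named for its column heading, which fits its group but no single sample label.

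Symbols that had become dates (48 rows) or were missing (2605) were named through their accessions in RefSeq, and 16 stayed unnamed and were dropped. In each library, 78.9% to 81.3% of low values came within 0.05 of a whole read number when RPKM was multiplied by the genomic span, against 14.3% to 16.5% with the spliced length, and 23397 of 23991 genes had a span. This gave the estimated reads (1 read was worth 0.0755 to 0.112 RPM). Log2(RPKM + 0.5) understates the change of low genes, while ratios of mean RPKM do not depend on the length.

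All 12 libraries entered 1 model (limma 3.58.1, R 4.3.3; trended prior variance) with 9 residual degrees of freedom, tested on simulated data. P-values were two-sided, adjusted by Benjamini-Hochberg over 6325 genes, and called under 0.05. Exact permutation tests of single genes used the 70 splits of 4 against 4 libraries. Named genes were the 8 members, up to 3 called genes per list, 3 closest genes by r for each called member, and 7 defining cell markers. The members and the 8 lists were chosen with earlier results of these data known, so no list was tested. Some genes of the lists are not reported here. Alternatives were the pseudocount, filter, scaling, transcript rows, trend, groups in the model, a replicate block and each library left out. Python 3.11.15, pandas 2.3.3, numpy 2.4.6 and matplotlib 3.10.9 were used.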

Additional observations from a re-analysis of the deposited data

Results flagged for a closer look

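Among the 24 sets of 4 libraries (8 genes in 3 groups), a single library stood far from the other 3 of its group in 3 cases by Dixon's ratio of the gap to the range, a test that chance passes in about 5% of sets. Lrp1 in HFD 1 was at 3.57 RPKM, against 2.37 to 2.54 in the other HFD libraries (ratio 0.857). Lipa in HFD 1 was at 3.17 RPKM, against 4.06 to 4.19 (ratio 0.876). Soat2 in HFD 3 was at 2.66 RPKM, against 2.25 to 2.32 (ratio 0.835). Over all 6325 tested genes HFD 1 stood apart in this way in 1.77% and HFD 3 in 1.06%. Both lay within the range of the 12 libraries (0.617% in HFD+ASBTi 1 to 2.62% in HFD 4). These shares are per library, whereas the 5% is per set of 4 libraries. Without HFD 1, Lrp1 passed in HFD+ASBTi against HFD (log2 change 0.48; limma adjusted p = 0.0320).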

How the results depend on the processing

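No member reversed a call under any alternative, and Lipa in HFD against chow passed in all of them (limma adjusted p 0.00345 to 0.0267). By unadjusted p under 0.05, the exact permutation test passed 2 members in HFD against chow and 1 in HFD+ASBTi against HFD. Limma, adjusted over all genes, passed 1 and 0. The permutation passes were the members whose groups did not overlap, as for 21.3% and 3.97% of all tested genes. In HFD+ASBTi against chow (limma 2), members passing were 0 with no filter, 1 with size factors, 1 on estimated RPM and 1 with the mean of rows. With 1 library left out, members passing ranged from 0 to 1 in HFD+ASBTi against HFD and from 0 to 2 in HFD+ASBTi against chow.

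Of all genes, 766 passed in HFD against chow, 1280 on estimated RPM, and 458 to 864 with a library left out (fewest without chow 2). In HFD+ASBTi against chow 446 of 6325 passed, 713 of 13117 on estimated RPM, and 142 to 521 with a library left out (fewest without chow 2). The share of higher genes among these was 67.3%, and 54.6% with size factors. In HFD+ASBTi against HFD 6 of 6325 passed, against 0 of 18950 with no filter and 1 of 4167 with a mean of at least 1 RPKM. It was 2 with a pseudocount of 1, 2 without a trend, 3 with only the 2 groups, and 0 to 9 with a library left out. The cause of these shifts was not tested. With the replicate number as a replicate block 3 genes and 0 members passed. Deviations of same-numbered libraries correlated at 0.0408 to 0.0691, and those of differently numbered ones at -0.109 to 0.117. Whether same-numbered libraries share a block cannot be told from these weak correlations.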
